A study of Arabidopsis thaliana with 9 samples.

Results

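CLE genes encode short secreted peptides that are cut from larger precursors and act between cells. Such peptides are perceived by leucine-rich-repeat receptor kinases and are best known for setting the balance between stem cell division and differentiation in shoot, root and vascular meristems. In roots, CLE40 acts on the stem cells of the tip, and the peptide TDIF, encoded by CLE41 and CLE44, acts on the procambium. Here 8 CLE genes were followed in roots: CLE16, CLE18, CLE22, CLE27, CLE40, CLE41, CLE42 and CLE43. They were taken by symbol, from probe sets annotated to exactly 1 gene, out of 16548 genes named on the array. Each had 1 probe set, so no choice between probe sets arose. Of 39 other listed CLE genes, 9 had such a probe set (CLV3, CLE1, CLE14, CLE20, CLE21, CLE25, CLE26, CLE44 and CLE45) and serve as comparison. Here and in later lists, measured means having a probe set annotated to that gene alone. Probe sets annotated to several genes or to none were not searched, so a gene not measured here is not shown to be absent from the array. The sizes of this and the later gene lists count genes after synonyms were merged, including any names that match no gene of the reference annotation.

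Total RNA was taken from roots of Arabidopsis thaliana of the wild type Col-0 and the mutant lines myb36-1 and myb36-2, with 3 Affymetrix arrays per line. MYB36 is a transcription factor known for driving Casparian strip formation in the endodermis. All plants were 2 weeks old and grew without further treatment on MGRL nutrient medium with 1.2% agar and 1% sucrose, at 22 °C with 16 h of light and 8 h of dark, after 2 days in the cold. The labels name the lines Arabidopsis-11250 (myb36-1) and Arabidopsis-GK543B11 (myb36-2) and do not describe the mutations, nor whether a line's arrays stand for separately grown plants, so the p-values rest on array-to-array spread that may be technical. Values are log2 expression, 1 unit being a doubling, and whole roots were sampled, so that fewer cells of a type and less RNA per cell cannot be told apart.

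The tested probe sets had array medians of 5.09 to 5.11 in Col-0, 5.07 to 5.09 in myb36-1 and 5.30 to 5.34 in myb36-2. The myb36-2 arrays thus stand apart as a set, and scale and line cannot be told apart. Every comparison with myb36-2 is therefore given as deposited and again after the 9 arrays had been quantile normalised as 1 set (the common scale). Between myb36-2 and Col-0, all tested probe sets had a median change of 0.16 as deposited and -0.01 on the common scale. No probe set was named for MYB36, so its own level was not analysed here. Of 6 measured endodermis genes, 3 fell in myb36-1 and 4 in myb36-2 on both scales, led by DIR9, a dirigent protein gene, at -3.07 and -3.84 as deposited. SGN3 and JKD were called in neither mutant (limma adjusted p under 0.05). Of all tested probe sets, 0.495% were called in myb36-1 and 21.3% in myb36-2 as deposited. On the common scale 0.472% and 10.1% were. The list was chosen with earlier results of these data known. Root hair expansin genes were measured at 6.64 to 6.89 (EXPA7) and 7.61 to 8.07 (EXPA18) over the 9 arrays. Among leaf genes, RCA (rubisco activase) lay at 6.31 to 6.99 and LHCB4.1 (a light-harvesting protein) at 6.46 to 7.11.

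The members differed in how far their signals stood from the low end of the array. By its mean in Col-0, CLE41 exceeded 80.4% of tested probe sets, CLE16 60.6% and CLE42 55.0%. CLE18 exceeded 25.3%, CLE43 18.3%, CLE22 16.6%, CLE27 9.38% and CLE40 6.72%. The files give no detection call, so whether these last 5 genes were above background is not known, and a change at such a level can be smaller on the array than in the RNA. The spread between arrays of a line was low for CLE22 (pooled SD 0.05), CLE40 (0.08), CLE41 (0.08) and CLE27 (0.09), against a median of 0.15 over all tested probe sets. It was 0.13 for CLE43, 0.18 for CLE16, 0.20 for CLE42 and 0.31 for CLE18. Since probe sets differ in response, these percentages rank signal and not the amount of transcript, and changes were taken between lines.

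**Figure D1:**
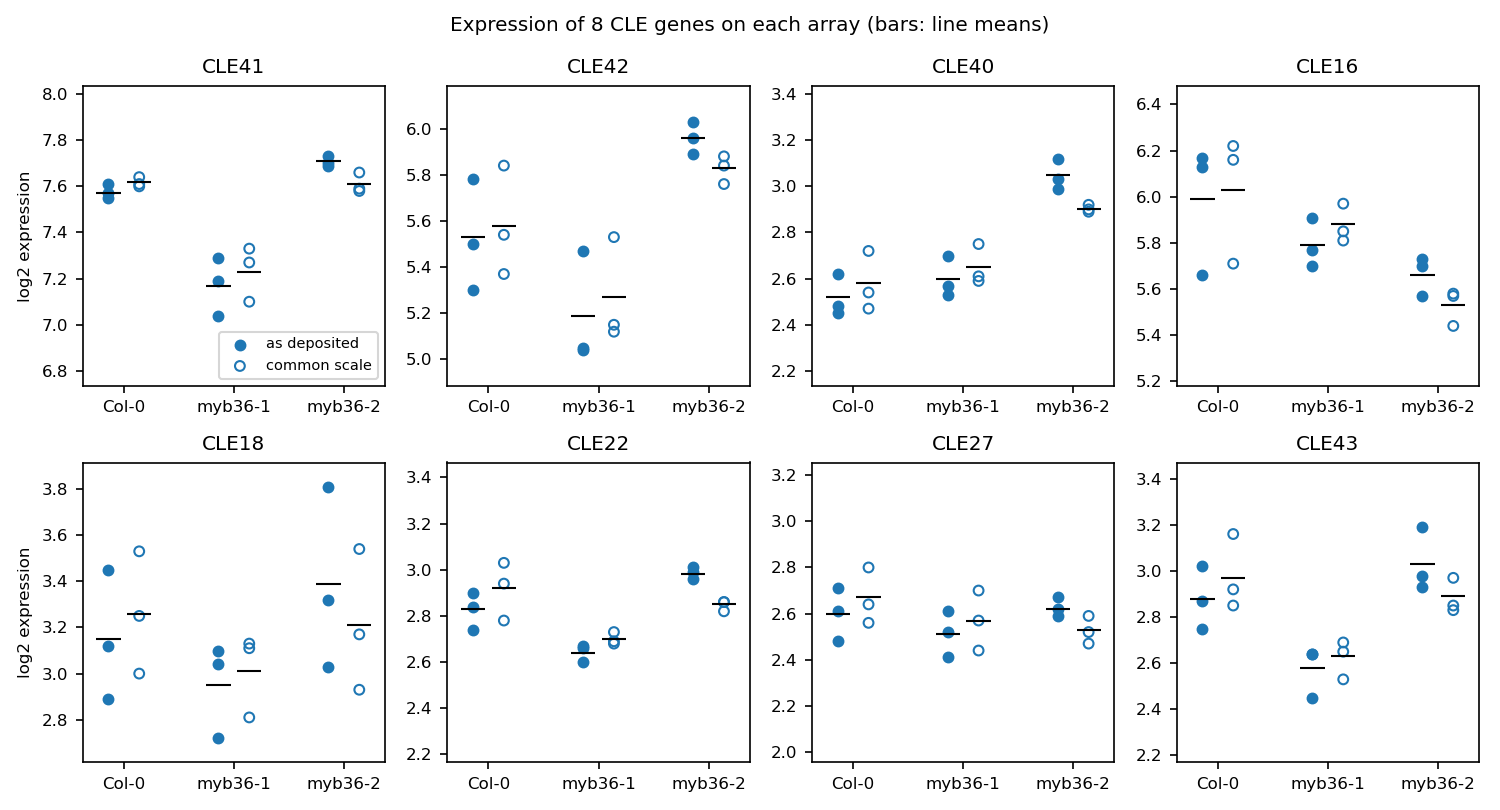
Log2 expression of the 8 CLE genes on each of the 9 arrays, by line, as deposited (filled points) and on the common scale (open points), with bars at line means of 3 arrays; each panel spans 1.3 log2 units. CLE41 was lowest in myb36-1 on both scales, and CLE40 was highest in myb36-2 on both.

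CLE41 encodes TDIF, a peptide made in phloem that promotes division of vascular stem cells and holds back xylem formation through the receptor PXY. It read 7.61, 7.57 and 7.55 in Col-0, 7.19, 7.29 and 7.04 in myb36-1, and 7.69, 7.73 and 7.70 in myb36-2. All 3 myb36-1 arrays lay below all others. Line means were 7.57 ± 0.03 (SD, n = 3), 7.17 ± 0.13 and 7.71 ± 0.02. Against Col-0 the change in myb36-1 was -0.40 ± 0.08 (SE; 95% interval -0.58 to -0.21), which did not pass in limma (unadjusted p = 8.9e-04, adjusted p = 0.10 over all probe sets). With an intensity trend and robust moderation it passed (adjusted p = 0.048). CLE41 was lower in myb36-1 than in myb36-2 by -0.53 ± 0.08 as deposited (limma adjusted p = 0.0059) and by -0.38 ± 0.08 on the common scale (adjusted p = 0.036). This was the single member called in that comparison on both scales. Its common-scale call was lost when any of the 9 arrays was left out (adjusted p 0.054 to 0.11), while the difference stayed between -0.43 and -0.31. In myb36-2 against Col-0 it changed by 0.13 as deposited (adjusted p = 0.27) and -0.01 on the common scale (95% interval -0.19 to 0.18, adjusted p = 0.97).

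CLE42 encodes a peptide closely related to TDIF. It read 5.50, 5.78 and 5.30 in Col-0, 5.05, 5.47 and 5.04 in myb36-1, and 5.89, 5.96 and 6.03 in myb36-2. As deposited the myb36-2 arrays lay above all others, whereas Col-0 and myb36-1 overlapped. Its difference between the mutants was the largest of the 8, -0.77 ± 0.15 for myb36-1 minus myb36-2 as deposited (limma adjusted p = 0.012). The common-scale difference was -0.56 ± 0.14 (95% interval -0.88 to -0.24) and did not pass (adjusted p = 0.063), except without Col-0 replicate 2 (adjusted p = 0.049). Neither mutant passed against Col-0, with changes of -0.34 ± 0.15 in myb36-1 (adjusted p = 0.45) and 0.43 ± 0.15 in myb36-2 (adjusted p = 0.066), the latter 0.25 on the common scale. The myb36-2 change passed as deposited without Col-0 replicate 2 or without myb36-1 replicate 2 (adjusted p = 0.043 in each). CLE44, the other TDIF gene, was at -0.01 in myb36-1 and rose by 0.41 in myb36-2 as deposited (limma adjusted p = 0.046), and was at 0.28 on the common scale (adjusted p = 0.18). A protein-coding gene (AT4G13190) overlaps the CLE44 locus (AT4G13195), and how far the probes read it, or how far those of the related CLE41 and CLE44 read each other's transcripts, was not determined.

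CLE40, the close relative of CLV3 that restrains stem cells of the root tip through ACR4 and CLV1, was the member called higher in myb36-2. It read 2.62, 2.48 and 2.45 in Col-0, 2.57, 2.53 and 2.70 in myb36-1, and 2.99, 3.12 and 3.03 in myb36-2. The myb36-2 arrays lay above the other 6, while Col-0 and myb36-1 overlapped. CLE40 rose in myb36-2 by 0.53 ± 0.09 as deposited (limma adjusted p = 0.0045) and by 0.33 ± 0.09 on the common scale (adjusted p = 0.047). Its Col-0 mean exceeded only 6.72% of tested probe sets, and whether this signal was above background is not known. After common scaling the arrays read 2.89, 2.92 and 2.90 in myb36-2 and 2.72, 2.54 and 2.47 in Col-0, again without overlap. That common-scale call passed without Col-0 replicate 1 (adjusted p = 0.042) and was lost without any other single array (adjusted p up to 0.12), the change lying between 0.28 and 0.40. In myb36-1 the change was 0.08 ± 0.09 (95% interval -0.11 to 0.27, adjusted p = 0.79). The difference between the mutants was -0.45 as deposited (adjusted p = 0.012) and -0.26 on the common scale (adjusted p = 0.14).

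CLE16, which has been tied to shoot meristem maintenance, went the other way. It read 6.13, 6.17 and 5.66 in Col-0, 5.70, 5.91 and 5.77 in myb36-1, and 5.57, 5.70 and 5.73 in myb36-2. Col-0 replicate 3 lay about as low as the mutants, so all lines overlapped as deposited. In myb36-2 the change was -0.32 ± 0.14 as deposited (limma adjusted p = 0.12) and it fell by 0.50 on the common scale (adjusted p = 0.044), where the myb36-2 arrays at 5.44, 5.57 and 5.58 lay below Col-0. Without Col-0 replicate 3 the change was -0.48 as deposited (adjusted p = 0.019) and -0.66 on the common scale (adjusted p = 0.0099), and the common-scale call was lost without any other single array (adjusted p up to 0.13). In myb36-1 it was at -0.19 ± 0.14 (adjusted p = 0.67). In the reference annotation, a protein-coding gene (AT2G01510) overlaps the CLE16 locus (AT2G01505), and which of the transcripts the probes read was not determined here.

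CLE43 and CLE22 showed the lowest values in myb36-1. CLE43 read 3.02, 2.75 and 2.87 in Col-0, 2.64, 2.45 and 2.64 in myb36-1, and 2.93, 3.19 and 2.98 in myb36-2. CLE22 read 2.90, 2.84 and 2.74 in Col-0, 2.66, 2.60 and 2.67 in myb36-1, and 2.96, 3.01 and 2.99 in myb36-2. For both genes every myb36-1 array lay below every array of the other lines, on both scales. Against Col-0 the changes in myb36-1 were -0.31 ± 0.11 for CLE43 (limma adjusted p = 0.33) and -0.18 ± 0.08 for CLE22 (adjusted p = 0.42). The differences from myb36-2 passed as deposited, at -0.45 (adjusted p = 0.024) and -0.34 (adjusted p = 0.019), and not on the common scale, at -0.26 (adjusted p = 0.18) and -0.15 (adjusted p = 0.34). As deposited the call of CLE22 was lost without myb36-1 replicate 2, myb36-2 replicate 2 or myb36-2 replicate 3 (adjusted p up to 0.064). The call of CLE43 was lost without those arrays or myb36-1 replicate 3 (adjusted p up to 0.075).

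CLE18, whose precursor also carries a motif of the root growth factor peptides, and CLE27 passed in no comparison on either scale. CLE18 varied most within lines, reading 3.12, 2.89 and 3.45 in Col-0, 3.10, 2.72 and 3.04 in myb36-1, and 3.03, 3.81 and 3.32 in myb36-2. Its interval for myb36-2 against Col-0 ran from -0.24 to 0.71 as deposited, so a rise of 0.5 was not resolved on that scale. On the common scale the change was -0.05, with an interval from -0.46 to 0.36. CLE27 read 2.48 to 2.71 in Col-0, 2.41 to 2.61 in myb36-1 and 2.59 to 2.67 in myb36-2, with all lines overlapping. Its intervals were narrow, -0.29 to 0.11 in myb36-1 and -0.18 to 0.22 in myb36-2 as deposited. On the common scale the CLE27 change in myb36-2 was -0.14, with an interval from -0.36 to 0.08.

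In myb36-1, 0 of the 8 members were called against Col-0, with a background of 0.495% of tested probe sets called as deposited and 0.472% after common scaling. By unadjusted limma p under 0.05 there were 4 members as deposited, against 11% of all tested probe sets, and 3 after common scaling, against 11.1%. Their changes ran from -0.40 to 0.08 with a median of -0.20, against -0.01 over all tested probe sets, and 7 of 8 were below 0. These 3 genes, CLE22, CLE41 and CLE43, were lower than Col-0 without overlap on both scales, as were 9.87% of all tested probe sets as deposited and 9.46% on the common scale. The 9 other CLE genes had a median of -0.01 as deposited, with 0 called, 0 at an unadjusted limma p under 0.05, and a range from -0.17 to 0.10. Over all 17 measured CLE genes the median was -0.07 as deposited and -0.06 on the common scale. Of these 17, 4 and 3 had an unadjusted limma p under 0.05, all of them members. Members and lists were chosen with earlier results of these data known. Setting members against the other CLE genes or against all tested probe sets is therefore descriptive only, in every comparison.

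In myb36-2 against Col-0, 1 member was called as deposited, CLE40, against 21.3% of tested probe sets called and 19.3% called higher. After common scaling 2 were called, CLE40 higher and CLE16 lower, against 10.1% called, 4.66% higher and 5.39% lower. The members' median change was 0.15 as deposited and -0.06 on the common scale, close to the 0.16 and -0.01 over all tested probe sets. As deposited 4 members (CLE22, CLE40, CLE41 and CLE42) were higher without overlap, and 35.9% of all tested probe sets were. With common scaling CLE40 alone was higher and CLE16 alone lower without overlap, against 14.8% and 17.3% of tested probe sets. The direction of CLE18, CLE22, CLE27, CLE41 and CLE43, none of them called, turned from above to below 0 between the scales.

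**Figure D2:**
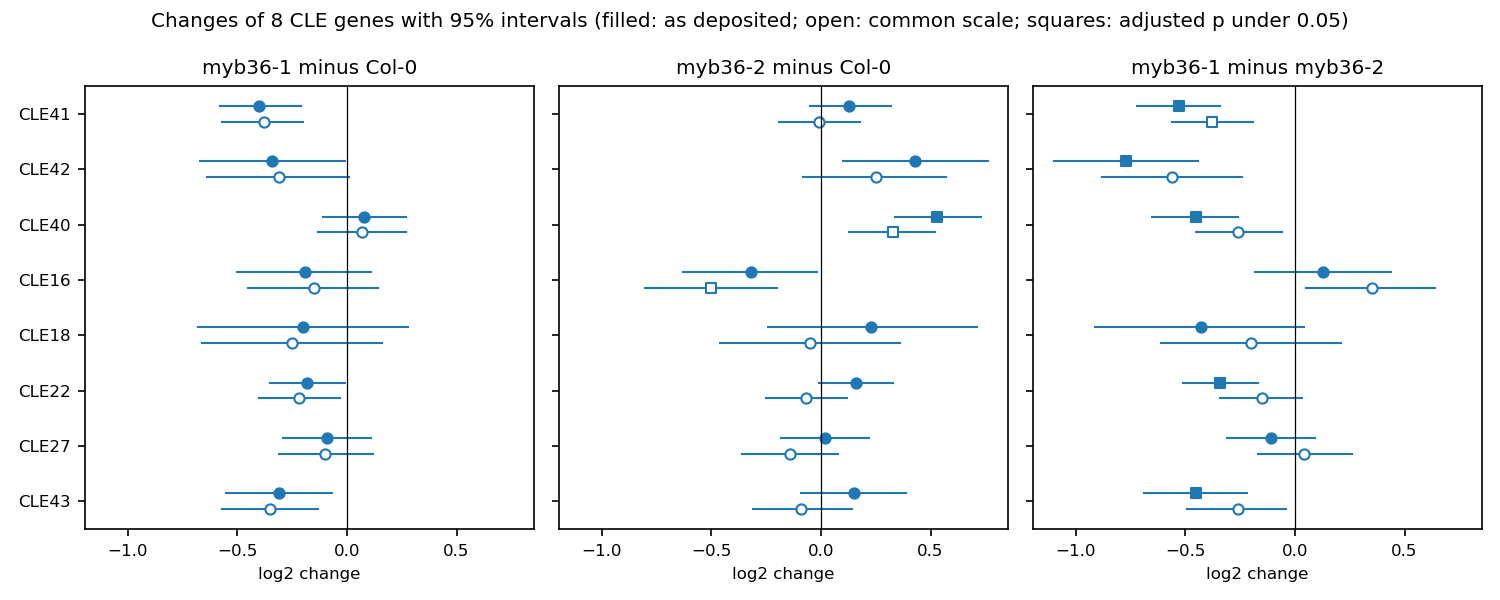
Log2 change (x axis) of the 8 CLE genes in the 3 comparisons, as deposited (filled) and on the common scale (open), with 95% intervals from limma over 9 arrays; squares mark an adjusted p under 0.05. In myb36-1 against Col-0 no marker is square and 7 of 8 lie below 0, and in myb36-1 against myb36-2 the 5 squares as deposited come down to 1, CLE41, on the common scale.

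In myb36-1 against myb36-2, 5 members were called as deposited, all lower in myb36-1 (CLE22, CLE40, CLE41, CLE42 and CLE43), against 15.4% of tested probe sets called and 14.5% called lower. With common scaling 1 was called, CLE41, against 4.15% called and 1.97% called lower. The same 5 genes were lower in myb36-1 without overlap on both scales, as were 34.8% of tested probe sets as deposited and 12% on the common scale. CLE16 was higher without overlap on the common scale, by 0.35 (adjusted p = 0.18), as were 14.2% of tested probe sets. The members' median difference was -0.44 as deposited against -0.17 over all tested probe sets, and -0.23 against 0.01 on the common scale. The 3 comparisons share lines, so their values are not independent of each other.

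Among the other CLE genes, CLV3, CLE14, CLE25 and CLE44 were called higher in myb36-2 as deposited, and CLV3 alone on the common scale, with 19.3% and 4.66% of all tested probe sets called higher. CLV3, the shoot meristem peptide gene, read 2.34, 2.15 and 2.32 in Col-0, 2.39, 2.35 and 2.29 in myb36-1, and 2.94, 2.94 and 2.66 in myb36-2. Its Col-0 mean exceeded only 1.44% of tested probe sets, so that it lay near the lowest signals of the array. It rose in myb36-2 by 0.58 ± 0.10 (limma adjusted p = 0.0060), or 0.41 ± 0.10 after common scaling (adjusted p = 0.030). CLE14, whose peptide is known to limit root meristem size, changed by 0.44 and 0.28, and CLE25, known as a signal of water deficit, by 0.37 and 0.21. CLE26, a root phloem peptide gene, was at 0.65 and 0.45 without passing, with myb36-1 arrays spread at 4.63, 5.62 and 5.03. CLE45, whose peptide suppresses protophloem formation through BAM3, was at -0.07 and -0.27. In the same comparison CLE1, CLE20 and CLE21 were at 0.12, 0.12 and -0.04 as deposited and at -0.17, -0.12 and -0.20 on the common scale. The pooled SDs of CLE1 and CLE20 were 0.38 and 0.36.

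**Figure D3:**
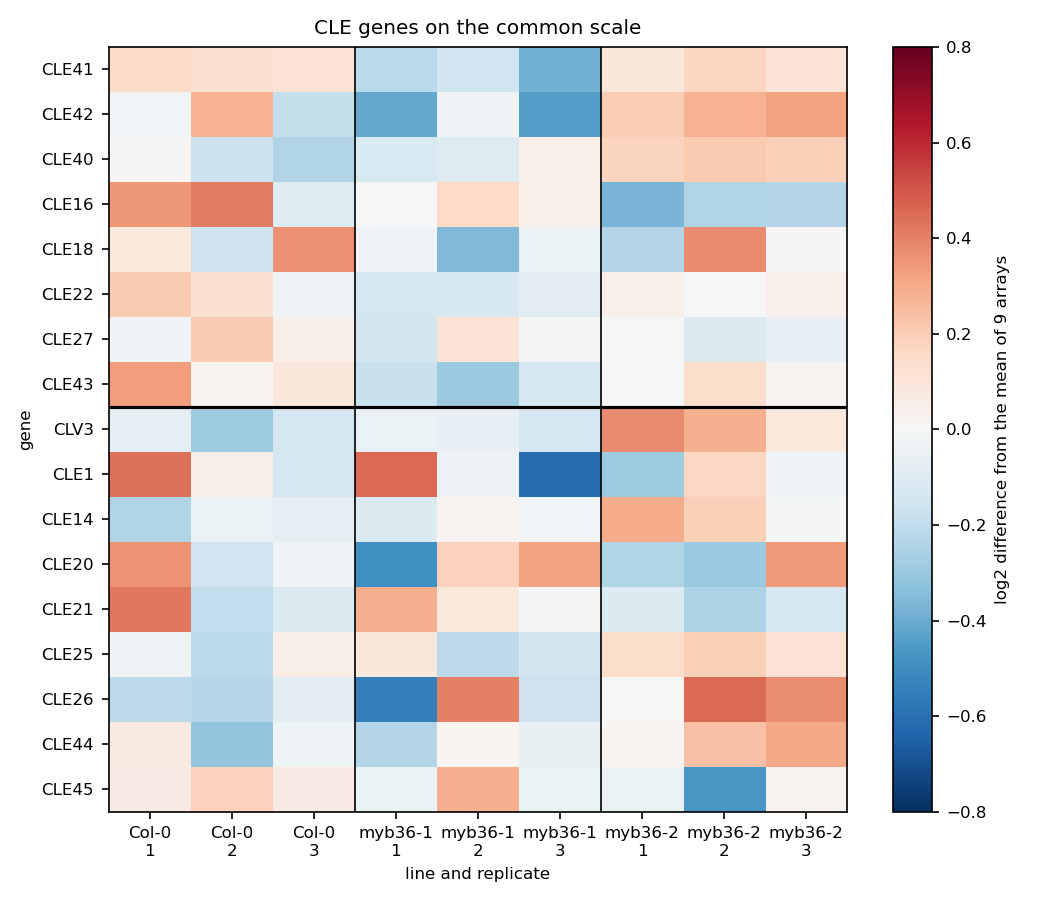
Difference of each array from the mean of 9 arrays (log2, common scale, colour) for the 8 CLE genes above the line and the 9 other CLE genes below it, with arrays in columns by line and replicate. Genes blue in all 3 myb36-1 arrays include CLE41, CLE22 and CLE43. Those red in all 3 myb36-2 arrays include CLE40, CLE42, CLE25 and CLV3, and CLE1 and CLE26 vary within lines.

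Of 26 listed receptors and co-receptors of CLE peptides, 2 were measured, the PXY-related kinases PXL1 and PXL2. PXL1 read 6.19 to 6.31 in Col-0, 5.98 to 6.26 in myb36-1, and 5.60 to 6.02 in myb36-2. In myb36-2 it changed by -0.40 ± 0.13 as deposited (limma adjusted p = 0.053) and fell by 0.58 on the common scale (adjusted p = 0.022). Its dimmer probe set did not follow, with common-scale means of 5.49 for Col-0, 5.61 for myb36-1 and 5.47 for myb36-2. PXL2 was at -0.03 in myb36-1 and, in myb36-2, at 0.07 as deposited and -0.07 on the common scale. Of 29 genes of processing and downstream signalling, 2 were measured and neither passed. POL, a phosphatase of meristem signalling, was at 0.00 in myb36-1 and 0.20 in myb36-2, and OPS, a protophloem regulator, at -0.01 and 0.12. Their common-scale changes in myb36-2 were 0.06 and -0.17.

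Of 122 listed genes for other secreted peptides, 21 were measured, among them 18 of the RALF family, whose peptides raise extracellular pH. In myb36-1 0 of the 21 passed and their median change was 0.00. In myb36-2 as deposited 4 of the 21 rose, with 19.3% of all tested probe sets called higher. With common scaling 0 rose and 1, RALFL27, fell by 0.76 (limma adjusted p = 0.033), with 4.66% of probe sets called higher and 5.39% lower. RALFL18 was at 0.11 in myb36-1 and in myb36-2 at 1.16 as deposited (adjusted p = 0.015) and 0.93 on the common scale (adjusted p = 0.053). RALFL32 was at -0.47 in myb36-1 without passing. No test compared these genes with the CLE genes.

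Few markers of the tissues in which CLE peptides act were measured in this sense. Of 16 phloem markers 2 were measured, OPS and CLE45, neither called in any comparison, and of 13 stele markers 1, LHW, which was at -0.03 in myb36-1 and rose by 0.29 in myb36-2 as deposited (0.16 on the common scale, not called). Of 11 xylem and 10 root cap markers, 0 were measured. Of 3 cortex genes in myb36-2, 2 rose as deposited, CO2 by 0.63 and AT1G62510 by 0.78, with 19.3% of all tested probe sets called higher. With common scaling 1 rose, AT1G62510 by 0.58, with 4.66% called higher. The other cortex gene, AT1G09750, was at -0.03 as deposited and -0.16 on the common scale. Of 3 leaf genes, RCA fell in myb36-2 by 0.50 as deposited and by 0.66 on the common scale, and the stomatal regulator gene FAMA rose by 0.38 as deposited only. LHCB4.1 was at 0.01 and -0.13 and was not called. As deposited 21.3% of all tested probe sets were called, 19.3% of them all being called higher. On the common scale 10.1% were called, with 5.39% called lower. The part of these marker genes in the CLE results was not tested.

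The members did not share a single pattern over the 9 arrays. On the common scale the 28 pairs of members had Pearson r from -0.60 to 0.84 with a median of 0.21, as a description over 9 arrays that fall into 3 lines. The highest were CLE22 with CLE43 (r = 0.84, Spearman rho = 0.68), CLE41 with CLE42 (r = 0.79, rho = 0.67) and CLE41 with CLE43 (r = 0.77, rho = 0.87). The lowest was CLE16 with CLE40 (r = -0.60, rho = -0.58).

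Among the 16548 named genes, those closest in pattern to each member were also picked by Pearson r on the common scale. AT5G43150 (r = 0.97, rho = 0.93) and AT5G44090 (r = 0.96, rho = 0.60) lay closest to CLE41, and line means of AT5G43150 were 9.19, 8.84 and 9.14 for Col-0, myb36-1 and myb36-2. AT2G47690 (0.98) and AT1G12830 (0.96) lay closest to CLE42, and AT4G19500 (0.97) and AT2G38640 (0.96) to CLE40. For CLE16 they were AT5G59470 (0.98) and AT1G43980 (0.97), the latter with line means of 3.79, 3.69 and 2.99. For CLE43 they were AT1G32190 (0.97) and AT3G13370 (0.96), for CLE22 AT1G62050 (0.95) and AT1G51000 (0.95), for CLE27 APK1A (0.96) and AT1G13780 (0.95), and for CLE18 AT3G48410 (0.94) and AT2G07724 (0.92). Between 4 genes (CLE18) and 53 genes (CLE16) had r above 0.9 with a member, so the closest genes are few among many alike.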

How the data were processed

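Root RNA was hybridised to 9 Affymetrix arrays. The deposited log2 expression values were made by the authors with RMA, per the submitters' processing notes; the RMA version and the set of arrays normalised jointly were not stated. Of 38408 probe sets, 7083 that precede the first annotated one in identifier order were taken for controls, which no source states, and dropped, leaving 31325 for testing. The platform annotation gives 1 gene for 16722 probe sets and several for 759; 16714 of the former matched the reference table (assembly TAIR10.1, names only), retired gene IDs being updated by symbol. Genes with several probe sets are shown by the brightest.

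Models with a mean for each of the 3 lines were fitted to all 9 arrays in R 4.3.3 with limma 3.58.1, using empirical Bayes moderation. Comparisons were two-sided, with Benjamini-Hochberg adjustment over all tested probe sets and calls at an adjusted p under 0.05. Changes carry the fit's standard error and 95% interval. The number of arrays limits the precision.

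The members and gene lists were chosen with earlier results of these data known. Named were all 8 members, the 2 genes of highest r for each, all measured CLE and CLE pathway genes, and up to 3 genes of each other list by mean absolute change. On simulated data for myb36-1 against Col-0 over 31325 probe sets, 29 of 100 changes of 0.5 and 75 of 100 changes of 1 were recovered, with 4 false calls. Alternatives were another scaling, leaving out dim probe sets, keeping the dropped ones, a trend in the moderation, weighted arrays, a fit to the compared lines alone, a replicate block and leaving out each array. Common-scale fits with the replicate block or without 1 array were added after seeing the data.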

Additional observations from a re-analysis of the deposited data

Results flagged for a closer look

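The mutants differed from each other in the direct comparison of their arrays for 5 of the 8 CLE genes followed, as deposited. Of the 9 other CLE genes, 3 were also called lower in myb36-1. Myb36-1 minus myb36-2 was -0.34 for CLE22, -0.45 for CLE40, -0.53 for CLE41, -0.77 for CLE42 and -0.45 for CLE43 on the log2 scale, each past the limma threshold, as were 14.5% of all tested probe sets in that direction. On the common scale CLE41 alone passed, with 1.97% of probe sets called lower. That call was lost when any of the 9 arrays was left out (adjusted p 0.054 to 0.11), and with equal array medians 0 members passed.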

How the results depend on the processing

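In myb36-1 against Col-0 the count of called members was 0 as reported and 1 with an intensity trend and robust moderation, where CLE41 passed (limma adjusted p = 0.048). In myb36-2 against Col-0 it was 1 as reported, 2 on the common scale, 2 with equal array medians and 0 without the dimmest probe sets, a fit that holds only 3 members and not CLE40. In myb36-1 against myb36-2 it was 5 as reported, 1 on the common scale, 0 with equal medians and 2 without the dimmest probe sets. Leaving out single arrays, on both scales, gave 0 to 2 in the former comparison and 0 to 5 in the latter. As deposited, the latter count was 3 without myb36-1 replicate 2, myb36-2 replicate 2 or myb36-2 replicate 3. Deviations of same-numbered arrays of different lines had r of -0.19 to 0.0846, and those of differently numbered arrays -0.169 to 0.171. These values show no pairing by number and cannot settle how the replicates were grown or processed. With the replicate block, 2 members were called in myb36-2 against Col-0 as deposited, CLE42 being added (limma adjusted p = 0.048), and 0 on the common scale, and the block on the common scale left 0 between the mutants.

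The direction turned for members that were not called. In myb36-2 against Col-0 the change under the common scale, equal medians and the common scale with the replicate block was -0.07, -0.06 and -0.07 for CLE22, -0.14, -0.20 and -0.14 for CLE27, -0.01, -0.09 and -0.01 for CLE41, and -0.09, -0.07 and -0.09 for CLE43. CLE18 was at -0.05 on the common scale, with and without the block. Between the mutants CLE27 was at 0.04, 0.13 and 0.04 under the same settings. With single arrays left out, on both scales, the ranges in myb36-2 against Col-0 were -0.21 to 0.41 for CLE18, -0.14 to 0.20 for CLE22, -0.20 to 0.08 for CLE27, -0.03 to 0.15 for CLE41 and -0.15 to 0.22 for CLE43, and that of CLE27 between the mutants was -0.16 to 0.11. In myb36-2 against Col-0, leaving out arrays also turned the direction within a scale. The ranges were -0.04 to 0.08 for CLE27 as deposited, and -0.21 to 0.09 for CLE18 and -0.03 to 0.01 for CLE41 on the common scale. The deposited, common-scale and equal-median settings differ by construction in the scale of the myb36-2 arrays, and any further cause was not tested.

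No other probe set of a member was available for the planned comparison. In the simulation of myb36-1 against Col-0, 29 of 100 changes of 0.5 were recovered, and recovery in the comparisons with myb36-2 was not simulated. In Col-0, 5 of the 8 members lay at low signal without a detection call.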
